A study of Mus musculus with 6 samples.

Results

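The genes described here were 10 immediate early transcription factor genes of the AP-1 and EGR families: Fos, Fosb, Fosl1, Fosl2, Jun, Junb, Jund, Egr1, Egr3 and Atf3. They were found on the arrays by gene name among the probes that were not controls. The 10 genes had 11 probes and 20 spots per array, of 34740 genes, 55680 probes and 59305 gene spots in all. Fosl2 had 2 probes, and the Fos probe was printed as 10 spots. A probe counted as measured on an array where the file marked it as well above background. By that mark 9 of the 10 genes were measured on all 6 arrays, and Egr3 on the KO neutrophil array alone.

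The study profiled cells of C57BL/6 mice deficient for TIARP (genotype TIARP-/-, called KO below) and of wild-type C57BL/6 mice (TIARP+/+, called WT). The gene that encodes TIARP is Steap4, whose product reduces metal ions at membranes and was described as a protein that TNF induces in adipocytes. The 6 groups had 1 single-colour Agilent array each. They were KO and WT peritoneal macrophages with TNFα for 24 hours, KO and WT peritoneal macrophages without the TNF label, and KO and WT neutrophils sorted from spleen by Ly6G on magnetic beads. All macrophages came from mice given thioglycollate medium into the peritoneum 3 days earlier. The labels number 3 mice per group, and the sources used here do not say whether an array held their pooled RNA. Nor do they give the age of the mice, the part of Steap4 that was deleted or the hours in culture without TNF. With 1 array per group there was no replicate check and no test. A gene was therefore counted as higher or lower by size alone, when it differed at least 2-fold (a log2 difference of 1) and the array with more signal measured it. If the other array did not, the fold is a bound against the lowest signal that array measured and is written as "at least".

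Levels are given as relative signal, the processed signal of a probe divided by the 75th percentile of all gene probes on its array. These percentiles lay between 338 and 432 for macrophages with TNF, between 410 and 490 without TNF and between 224 and 231 for neutrophils. Of all probes, 56.6% to 62.2% were measured on an array, and no gene spot was saturated. Steap4 had relative signals of 0.0379 in KO and 0.114 in WT macrophages with TNF, 0.203 in KO and 0.357 in WT macrophages without TNF, and 0.161 in KO and 0.211 in WT neutrophils. Its probe was not well above background in KO macrophages with TNF, and it may lie outside the deleted part. All 14 macrophage markers were measured on the 4 macrophage arrays and all 11 mature neutrophil markers on the neutrophil arrays. The neutrophil markers were also all measured on the macrophage arrays, and 13 of the 14 macrophage markers in KO and 14 in WT neutrophils. The macrophage markers summed to a relative signal of 422 in KO and 638 in WT neutrophils, 1723 in KO and 1360 in WT macrophages with TNF, and 1554 in KO and 1301 in WT macrophages without TNF. The neutrophil arrays also measured all 9 B-cell markers, among them Cd79b and Ms4a1, with a summed relative signal of 635 in KO and 627 in WT neutrophils. That sum was 15.0 in KO and 5.13 in WT macrophages with TNF and 20.4 in KO and 7.12 in WT macrophages without TNF. RNA of B-cell marker genes was thus present in the sorted neutrophil preparations. The 11 mature neutrophil markers summed to 505 in KO and 249 in WT macrophages with TNF, and to 456 in KO and 177 in WT macrophages without TNF.

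AP-1 is a dimer of basic leucine zipper proteins. Jun proteins pair with each other or with Fos proteins, whereas Fos proteins need a Jun partner, and the dimer binds the sequence TGANTCA. Fosl1 and Fosl2 encode the Fos relatives Fra-1 and Fra-2, which lack the strong activation domain of Fos and Fosb. Egr1 and Egr3 are zinc finger factors that bind GC-rich sites, and Atf3 is a stress-induced member of the ATF family that can pair with Jun proteins. Most of these genes are switched on within minutes of a stimulus, through kinases of the MAPK cascades acting on factors already present, and their mRNAs are short-lived. They are also known to be induced by the handling of cells during isolation from a tissue.

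RefSeq promoter windows (GRCm38.p6, 250 bases before to 50 bases after the start of the gene) were matched by symbol for 7 of the members: Fos, Fosb, Fosl2, Jun, Junb, Jund and Atf3. The windows of Fos, Fosb, Fosl2, Jun and Junb are shown because they cover the member with the widest range over the arrays (Fosb), the one that was lower with TNF (Fos), the one that differed between KO and WT neutrophils (Fosl2) and a pair of Jun genes. They run 5′ to 3′ on the strand of the gene, and capitals mark every match to a CRE core (TGACG), a Jun-type AP-1 site (TGACATCA), an EGR site (GCGNGGGCG) or a TATA box (TATAAA), searched on both strands.
Fos, chr12:85473640-85473939, plus strand: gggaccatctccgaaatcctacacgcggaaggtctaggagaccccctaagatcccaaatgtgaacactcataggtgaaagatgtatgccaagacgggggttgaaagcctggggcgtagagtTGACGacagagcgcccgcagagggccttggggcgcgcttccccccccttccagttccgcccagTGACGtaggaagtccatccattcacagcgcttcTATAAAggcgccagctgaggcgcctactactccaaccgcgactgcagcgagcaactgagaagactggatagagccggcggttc
Fosb, chr7:19309996-19310295, minus strand: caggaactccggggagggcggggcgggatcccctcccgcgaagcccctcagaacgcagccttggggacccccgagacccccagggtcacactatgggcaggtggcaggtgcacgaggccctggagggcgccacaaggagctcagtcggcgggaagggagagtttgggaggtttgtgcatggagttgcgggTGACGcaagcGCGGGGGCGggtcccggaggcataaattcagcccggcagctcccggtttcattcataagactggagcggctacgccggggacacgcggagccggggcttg
Fosl2, chr5:32136222-32136521, plus strand: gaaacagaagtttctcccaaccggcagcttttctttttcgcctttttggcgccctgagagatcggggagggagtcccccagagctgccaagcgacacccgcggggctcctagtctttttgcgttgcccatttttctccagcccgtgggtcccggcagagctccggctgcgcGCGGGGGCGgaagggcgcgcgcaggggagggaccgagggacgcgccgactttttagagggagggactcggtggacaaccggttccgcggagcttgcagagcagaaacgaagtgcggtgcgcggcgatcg
Jun, chr4:95052173-95052472, minus strand: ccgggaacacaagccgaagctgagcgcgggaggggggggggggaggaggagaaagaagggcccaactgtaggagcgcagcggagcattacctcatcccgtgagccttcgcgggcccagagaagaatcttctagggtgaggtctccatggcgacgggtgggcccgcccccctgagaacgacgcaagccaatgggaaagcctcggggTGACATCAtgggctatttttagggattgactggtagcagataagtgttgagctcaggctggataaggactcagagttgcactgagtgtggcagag
Junb, chr8:84978699-84978998, minus strand: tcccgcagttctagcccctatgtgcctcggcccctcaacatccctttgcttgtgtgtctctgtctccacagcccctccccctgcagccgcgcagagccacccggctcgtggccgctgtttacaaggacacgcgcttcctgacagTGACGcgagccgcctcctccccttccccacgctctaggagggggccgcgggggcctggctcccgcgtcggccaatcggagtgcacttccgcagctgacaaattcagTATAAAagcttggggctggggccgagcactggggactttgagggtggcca

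The CRE core was found in 4 of the 7 windows, those of Fos, Fosb, Junb and Atf3, and in 20.8% of all 32851 windows of that length. In Fos it lay 129 and 66 bases before the start, and in Fosb 60 bases before it. The full CRE (TGACGTCA), which contains the core, was in 0 of the 7 and in 1.79% of all windows. The Jun window held TGACATCA, which differs from the usual AP-1 site in spacing, 45 bases before the start, as did 3.62% of all windows. TGANTCA itself was in 0 of the 7 windows and in 7.81% of all. An EGR site stood in the Fosb and Fosl2 windows, 50 and 79 bases before the start, against 5.55% of all windows. TATAAA was in the Fos and Junb windows and in 13.6% of all. In Fos it lay 33 bases before the start, whereas in Junb it began at the start itself. The CArG box, the binding site of serum response factor, was in 0 of the 7 windows and in 1.63% of all. The κB site, not capitalised above, matched the Fos, Fosb and Fosl2 windows and 8.46% of all. These are matches of letters only. A site more than 250 bases before the start would not be seen, the CArG box included, and Egr1 is not among the 7 windows.

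The arrays fell apart by cell type more than by genotype or TNF. Fos, Fosb, Jun, Junb, Jund and Egr1 were each at least 2-fold higher on both neutrophil arrays than on any of the 4 macrophage arrays. Fosl1 was at least 2-fold lower on both. Among the 20151 genes measured on all 6 arrays, 2279 (11.3%) showed the first pattern and 2333 (11.6%) the second. Fosb had a 310-fold range over the 6 arrays, which ranked 87 of those 20151 genes. The ranges of Egr1 (43.6-fold) and Fos (42.6-fold) ranked 410 and 418, whereas Atf3, with a 1.69-fold range, ranked 15261.

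**Figure D1:**
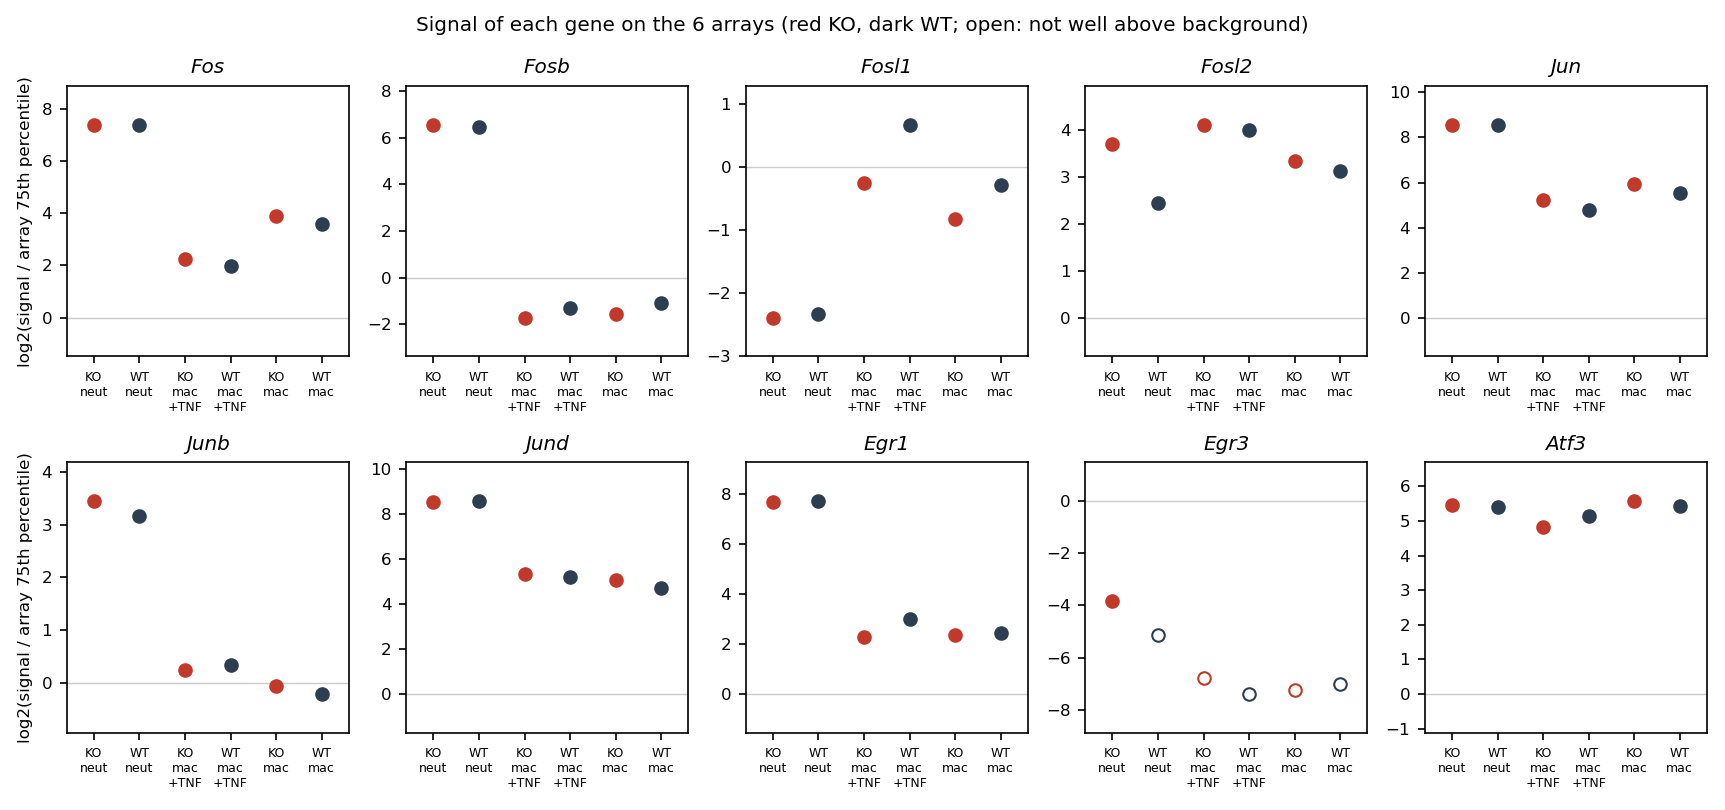
Log2 of the relative signal (own scale in each panel) of each of the 10 genes on the 6 arrays, 1 point per array, for neutrophils (neut) and macrophages (mac) with and without TNF, KO left of WT in each pair, and open points where the probe was not well above background. Fos, Fosb, Jun, Junb, Jund and Egr1 stood higher on both neutrophil arrays than on all 4 macrophage arrays, Fosl1 stood lower, and Atf3 spanned 1.69-fold in all.

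Among the Fos proteins, Fos itself (probe on chromosome 12, 86817900 to 86817959, mm9) had a relative signal of 167 in KO and 168 in WT neutrophils. It had 4.70 in KO and 3.93 in WT macrophages with TNF, and 14.9 in KO and 12.0 in WT macrophages without TNF. The 3 pairs did not overlap, and within each pair KO and WT lay within 1.24-fold. The 10 Fos spots on an array had SDs between 0.03 and 0.07 on the log2 scale, which describes the scatter of printing and scanning and not that between mice.

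Fosb (chromosome 7, 19888168 to 19888227), a close relative of Fos, had relative signals of 94.6 in KO and 87.1 in WT neutrophils. On the macrophage arrays it had 0.306 in KO and 0.406 in WT with TNF, and 0.341 in KO and 0.477 in WT without TNF. The 2 neutrophil arrays were close to each other, and the 4 macrophage arrays lay within 1.56-fold.

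Fosl1 (chromosome 19, 5455496 to 5455555), which encodes Fra-1, ran the other way. It had 0.191 in KO and 0.197 in WT neutrophils, against 0.835 in KO and 1.59 in WT macrophages with TNF and 0.563 in KO and 0.820 in WT macrophages without TNF. WT macrophages with TNF were the highest and the 2 neutrophil arrays the lowest.

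Fosl2 (chromosome 5, 32460076 to 32460135), which encodes Fra-2, had relative signals of 13.1 in KO and 5.50 in WT neutrophils. It had 17.4 in KO and 16.1 in WT macrophages with TNF, and 10.1 in KO and 8.80 in WT macrophages without TNF. Here WT neutrophils were the lowest array, while KO neutrophils lay among the macrophages. A second Fosl2 probe (chromosome 5, 32455088 to 32455147) was dim on every array. It gave 0.273 in KO and 0.329 in WT neutrophils, 0.130 in KO and 0.102 in WT macrophages with TNF, and 0.0960 in KO and 0.0917 in WT macrophages without TNF. Its order differed from that of the brighter probe: both neutrophil arrays were highest, and KO neutrophils were below WT neutrophils.

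Of the Jun proteins, Jun (chromosome 4, 94716928 to 94716987) had 371 in KO and 380.4 in WT neutrophils, 37.8 in KO and 27.7 in WT macrophages with TNF, and 60.5 in KO and 46.2 in WT macrophages without TNF. Jund (chromosome 8, 73224436 to 73224495), the member of the family known for steady expression, had 364 in KO and 377 in WT neutrophils. On the macrophage arrays Jund had 40.4 in KO and 37.0 in WT with TNF, and 32.8 in KO and 26.3 in WT without TNF. Junb (chromosome 8, 87501881 to 87501940), which can restrain Jun, had 10.9 in KO and 8.93 in WT neutrophils, 1.18 in KO and 1.27 in WT macrophages with TNF, and 0.952 in KO and 0.859 in WT macrophages without TNF. For all 3 Jun genes the neutrophil pair stood clear of the macrophages. Jun was higher without TNF than with it on the macrophage arrays, and Junb and Jund were the reverse, by less than 2-fold in each case.

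Egr1, an early growth response factor that is also a regulator of macrophage differentiation, had relative signals of 206 in KO and 209 in WT neutrophils. It had 4.79 in KO and 7.97 in WT macrophages with TNF, and 5.10 in KO and 5.42 in WT macrophages without TNF. The neutrophil arrays lay close together and at least 25.9-fold above every macrophage array. Egr3 (chromosome 14, 70479222 to 70479281) had 0.0700 in KO neutrophils, where alone it was measured, and 0.0288 in WT neutrophils. It was not well above background in macrophages, with 0.0090 in KO and 0.0059 in WT macrophages with TNF and 0.0067 in KO and 0.0078 in WT macrophages without TNF, and these values have no order.

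Atf3 (chromosome 1, 192994547 to 192994606) was the most even of the members. It had 43.8 in KO and 42.2 in WT neutrophils, 28.2 in KO and 35.2 in WT macrophages with TNF, and 47.5 in KO and 43.0 in WT macrophages without TNF. No pair of arrays differed 2-fold.

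The first comparison asked whether the loss of TIARP went with other levels of these factors in macrophages without the TNF label. None of the 9 measured members reached 2-fold between KO and WT (0 of 9, against 5.64% of all genes, 4.09% higher and 1.55% lower), so the count was near the background. Their log2 differences, KO minus WT, had a median of 0.15, against 0.07 over all genes. Jun was at 0.39, Jund at 0.32, Fos at 0.31, Fosl2 at 0.20, Junb at 0.15 and Atf3 at 0.14, and these 6 values were below 0 when the arrays were scaled to the spike-in controls instead (-0.13 for Jun to -0.38 for Atf3). Fosl1 was at -0.54, Fosb at -0.48 and Egr1 at -0.09. Fosl1 and Fosb passed 2-fold with the spike-in scaling (-1.07 and -1.01), which lowered the median of all genes to -0.46.

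With TNF, the count was again 0 of 9 members between KO and WT macrophages, where 9.67% of all genes passed, 6.98% higher and 2.69% lower. The median log2 difference of the members was -0.11, against 0.05 over all genes. Fosl1 had the largest difference, -0.93, followed by Egr1 at -0.73, Fosb at -0.41 and Atf3 at -0.32. Junb was at -0.11, Fosl2 at 0.11, Jund at 0.13, Fos at 0.26 and Jun at 0.45. Under spike-in scaling Fosl1 (-1.71), Egr1 (-1.51), Fosb (-1.19) and Atf3 (-1.10) passed 2-fold, and the median of all genes was -0.72. The 4 positive values were then below 0, from -0.33 for Jun to -0.67 for Fosl2. The 8 mesothelial and fibroblast markers summed to a relative signal of 121 in KO and 252 in WT macrophages with TNF, and of 149 in KO and 266 in WT macrophages without TNF, so they ran with Fosl1 between genotypes. The neutrophil marker sums, given above, ran the other way. The part of either in these differences was not tested. In RNA from a mixed population, fewer cells of a type and less RNA per cell cannot be told apart.

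In neutrophils Fosl2 was 2.38-fold higher on the KO array (log2 1.25), the 1 member of 10 past 2-fold, while 8.39% of all genes passed, 3.66% higher and 4.73% lower. Its second probe differed by -0.27 on the log2 scale, so the probes disagreed in direction, and the median over both probes gave 0.49. With spike-in scaling the brighter probe gave 0.84, also short of 2-fold. Egr3 was at least 1.46-fold higher in KO neutrophils and did not pass. The other members lay close to 0: Junb at 0.29, Fosb at 0.12, Atf3 at 0.05, Fos at -0.00, Egr1 at -0.02, Jun at -0.03, and Fosl1 and Jund at -0.05 each. With spike-in scaling the positive values of Junb, Fosb and Atf3 became -0.13, -0.30 and -0.36. Fos was then at -0.42, Jun at -0.45, Jund at -0.46 and Egr1 at -0.43. By the scaling of the relative signals, Fos, Jun, Jund and Egr1 were within 1.04-fold between the genotypes, and Fosb was at 1.09-fold. The erythroid markers summed to 821 in KO and 335 in WT neutrophils and the plasma cell markers to 236 in KO and 696 in WT neutrophils. Of 14 macrophage markers, 8 were lower in KO neutrophils, among them Adgre1 and Mrc1 (median log2 -1.15, sums of 422 in KO and 638 in WT), and of 11 mature neutrophil markers 5 were higher, among them Cxcr2 and Mxd1 (median 0.96, sums of 2769 in KO and 2238 in WT). The part of these markers in the Fosl2 difference was not tested.

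**Figure D2:**
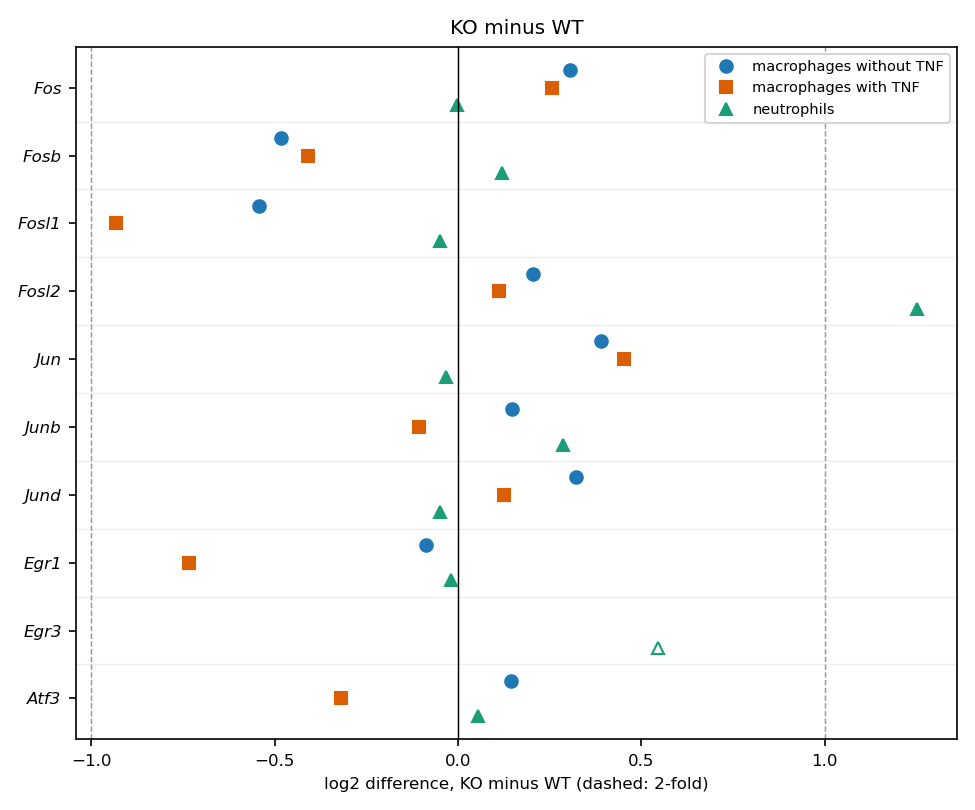
Log2 difference, KO minus WT, of each member in macrophages without TNF, macrophages with TNF and neutrophils, 1 point per pair of arrays, with dashed lines at 2-fold and an open point for the bound of Egr3. Fosl2 in neutrophils (1.25) was the only point past the lines under this scaling, and Fosl1 with TNF (-0.93) came nearest among the macrophage values.

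TNF is known to switch on Fos, Jun and Egr1 within the first hour, and the arrays with TNF were made after 24 hours. Fos was lower in macrophages with TNF than without, 3.17-fold in KO (log2 -1.66) and 3.06-fold in WT (log2 -1.61). Fos was the 1 of 9 members past 2-fold in either genotype, where 8.18% of all genes passed in KO (4.45% higher and 3.73% lower) and 9% in WT (4.41% higher and 4.59% lower). Over the 7 other settings the log2 value of Fos lay between -1.97 and -1.66 in KO and between -1.70 and -1.60 in WT. The macrophages without TNF have no stated time in culture, so TNF and time cannot be told apart.

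The other members moved by less than 2-fold with TNF. Jun was at -0.68 in KO and -0.74 in WT, and Atf3 at -0.75 in KO and -0.29 in WT. Fosl1 was at 0.57 in KO and 0.96 in WT, and Fosl2 at 0.78 in KO and 0.87 in WT. Thus Fos and Jun had negative values in both genotypes and the Fra genes positive ones. The mesothelial and fibroblast markers did not run with Fosl1 here (median log2 -0.84 in KO and -0.69 in WT), and their part was not tested. Junb (0.31 in KO and 0.56 in WT) and Jund (0.30 in KO and 0.49 in WT) were slightly positive, Fosb was at -0.16 in KO and -0.23 in WT, and Egr1 was at -0.09 in KO and 0.56 in WT. With spike-in scaling Atf3 in KO macrophages passed 2-fold (-1.06), and Jund in KO was at -0.00.

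Whether TNF went with a different change in KO than in WT was described by the difference between the TNF differences. None of the 9 members reached a log2 value of 1 there (0 of 9, against 2.12% of all genes, 1.49% higher and 0.621% lower). Egr1 had the largest value, -0.65, and Fosb the highest, 0.07 by scaling to the 75th percentile, which became -0.18 with spike-in scaling. The median over the members was -0.19, against -0.02 over all genes.

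The comparison of neutrophils with macrophages crosses cell type with organ, with isolation and with thioglycollate, which the neutrophil mice are not stated to have received, so these cannot be told apart. Of 10 members, 7 were at least 2-fold higher and 1 lower in KO neutrophils than in KO macrophages without TNF (8 in all), where 44.9% of all genes passed, 25.3% higher and 19.6% lower. In WT, 6 of 9 were higher and 1 lower, where 44.4% passed, 26.4% higher and 17.9% lower. The median log2 difference of the members was 3.04 in KO and 3.38 in WT, against 0.10 in KO and 0.12 in WT over all genes. Egr3 passed the measured-signal rule in KO only through its neutrophil array.

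Fosb had the largest difference, 277-fold in KO (log2 8.11) and 183-fold in WT (log2 7.51). Egr1 was 40.4-fold higher in KO and 38.5-fold in WT neutrophils. Fos was 11.2-fold higher in KO and 13.9-fold in WT, and Jun 6.14-fold in KO and 8.24-fold in WT. Jund was 11.1-fold higher in KO and 14.3-fold in WT, and Junb 11.4-fold in KO and 10.4-fold in WT. These 6 genes stayed at least 2-fold higher in neutrophils of both genotypes under all 7 other settings. The lowest values came with spike-in scaling, 1.15 for Jun in KO and 1.46 in WT, when the median of all genes was -1.32 in KO and -1.36 in WT. That scaling lowers every log2 value of neutrophils against macrophages that is not a bound by 1.47 in KO and 1.58 in WT, also those of the gene lists below. Egr3 was at least 2.75-fold higher in KO neutrophils, a value that did not hold with quantile normalization (0.90), normexp background correction (0.89) or spike-in scaling.

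Fosl1 was lower in neutrophils, 2.95-fold in KO (log2 -1.56) and 4.15-fold in WT (log2 -2.05). With normexp correction the KO value was -0.85. Fosl2 was at 0.37 in KO and -0.68 in WT with its brighter probe and at 1.51 in KO and 1.84 in WT with the dim one, so it has no settled direction. Atf3 was at -0.12 in KO and -0.03 in WT. The mesothelial and fibroblast markers summed to 1.39 in KO and 1.08 in WT neutrophils, far below their sums on the macrophage arrays. They moved with Fosl1, as did the macrophage marker sums. The B-cell, neutrophil, erythroid, plasma cell, eosinophil and T-cell marker sums moved with Fosb, Egr1, Fos and the Jun genes. The erythroid sums were 821 in KO and 335 in WT neutrophils, against 6.31 in KO and 2.51 in WT macrophages without TNF. The part of these markers was not tested. Of 7 heat shock genes that handling can induce, 2 were higher and 0 lower in either genotype, where 25.3% of all genes were higher in KO and 26.4% in WT. Hspa1a had 7.87 in KO and 32.4 in WT neutrophils, against 0.181 in KO and 0.178 in WT macrophages without TNF, and Dnajb1 had 39.5 in KO and 88.8 in WT neutrophils, against 18.1 in KO and 16.9 in WT macrophages without TNF. The other 5 lay between -0.38 (Hspd1) and 0.42 (Hsp90aa1) in KO. With spike-in scaling 1 of the 7 was higher and 5 lower in KO, and 1 higher and 2 lower in WT. Among all genes 1679 of 25056 were then higher and 15204 lower in KO, and 1973 of 25548 higher and 15728 lower in WT. The part of the heat shock genes in the levels of the AP-1 and EGR genes was not tested.

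**Figure D3:**
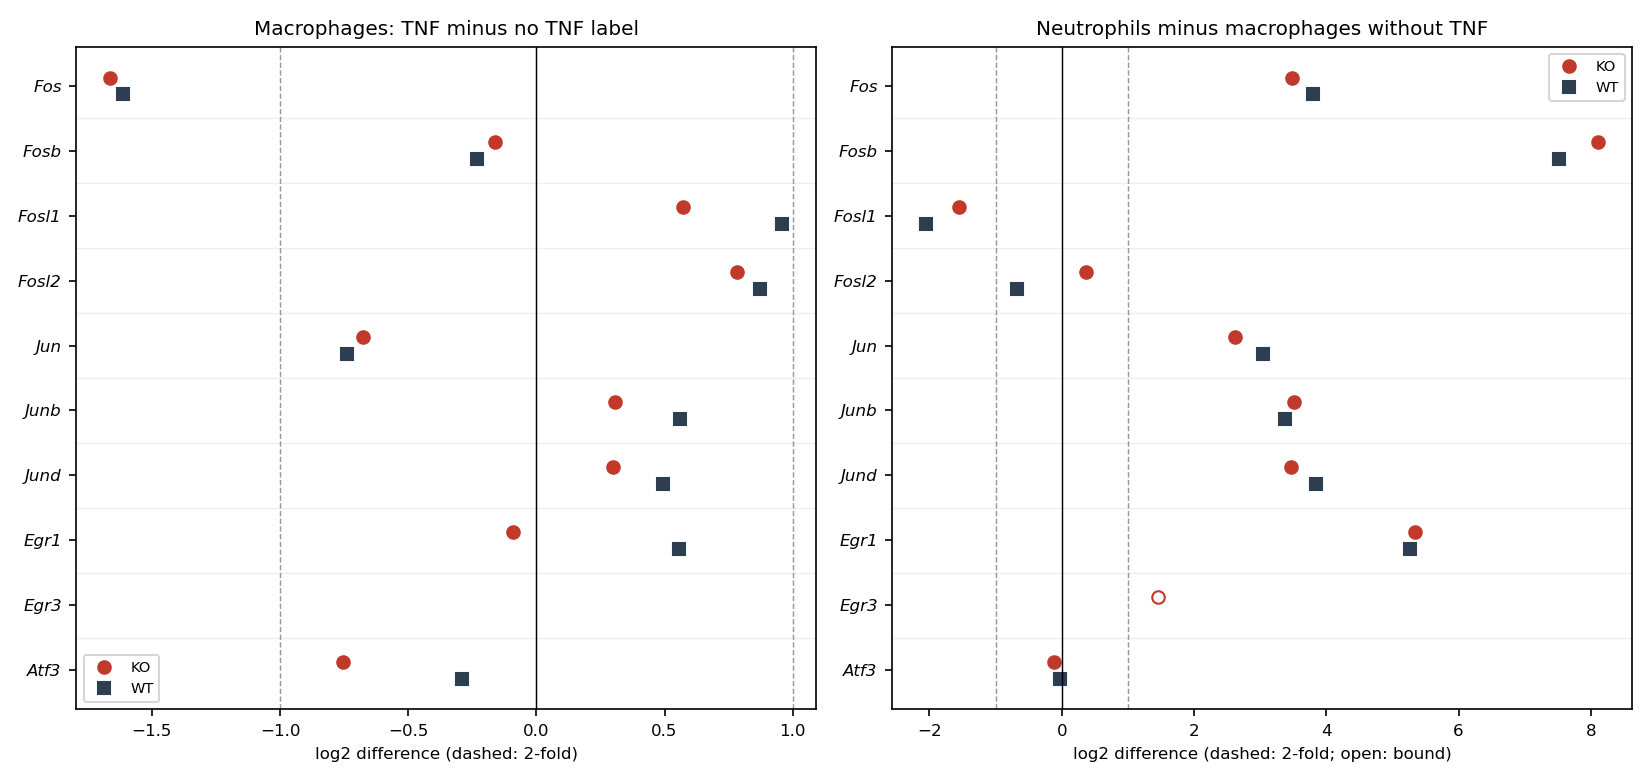
Log2 differences of the members for TNF against no TNF in macrophages and for neutrophils against macrophages without TNF, with KO and WT marked by colour, dashed lines at 2-fold and an open point for the bound of Egr3. Fos was the 1 member past 2-fold with TNF, and Fosb, Egr1, Fos, Jund, Junb and Jun were past it in neutrophils of both genotypes.

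Other immediate early genes were described from a list of 29 genes. The macrophage arrays measured 28 of them, and the gene they left out entered only through the neutrophil arrays, as a bound. In neutrophils 20 of 29 were higher and 3 lower in KO (median log2 2.68), and 22 of 29 higher and 3 lower in WT (median 2.28). Among all genes 25.3% were higher and 19.6% lower in KO, and 26.4% higher and 17.9% lower in WT. Nr4a1, an orphan nuclear receptor, had 351 in KO and 384 in WT neutrophils, against 5.18 in KO and 3.97 in WT macrophages without TNF. Klf2, a zinc finger factor, had 379 in KO and 282 in WT neutrophils, against 15.9 in KO and 9.19 in WT macrophages without TNF. Ccn1, a matricellular protein gene, was the lowest (log2 -2.82 in KO and -3.37 in WT), followed by the polo-like kinase gene Plk2 (-2.54 in KO and -2.05 in WT). With spike-in scaling the counts were 15 higher and 8 lower in KO, and 10 higher and 7 lower in WT. Of 25056 genes in KO, 1679 were then higher and 15204 lower, and of 25548 in WT, 1973 were higher and 15728 lower.

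Macrophages with TNF had 4 of 28 of these genes higher and 5 lower in KO, and 1 higher and 5 lower in WT. Among all genes 4.45% were higher and 3.73% lower in KO, and 4.41% higher and 4.59% lower in WT. With spike-in scaling the counts were 1 higher and 7 lower in KO, and 1 higher and 5 lower in WT. Of 24034 genes in KO, 628 were then higher and 1725 lower, and of 24615 in WT, 1007 were higher and 1247 lower. Maff, a small Maf protein, was higher in both (log2 2.23 in KO and 2.41 in WT), and Gadd45a passed in KO (1.29, and 0.99 with spike-in scaling) and not in WT (0.71), a difference that was not tested. Rgs2 (-1.86 in KO and -1.95 in WT) and Rgs1 (-1.71 in KO and -1.53 in WT), regulators of G-protein signalling, fell. Between KO and WT macrophages 0 of 28 passed, with or without TNF, where 9.67% of all genes passed with TNF and 5.64% without. With spike-in scaling 7 of the 28 were lower in KO with TNF and 2 without. Over all genes that scaling gave 4997 of 23896 lower in KO with TNF and 1760 of 24632 without. Ier3 was the 1 of 29 that passed between KO and WT neutrophils (1.03), where 8.39% of all genes passed, 3.66% higher and 4.73% lower.

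**Figure D4:**
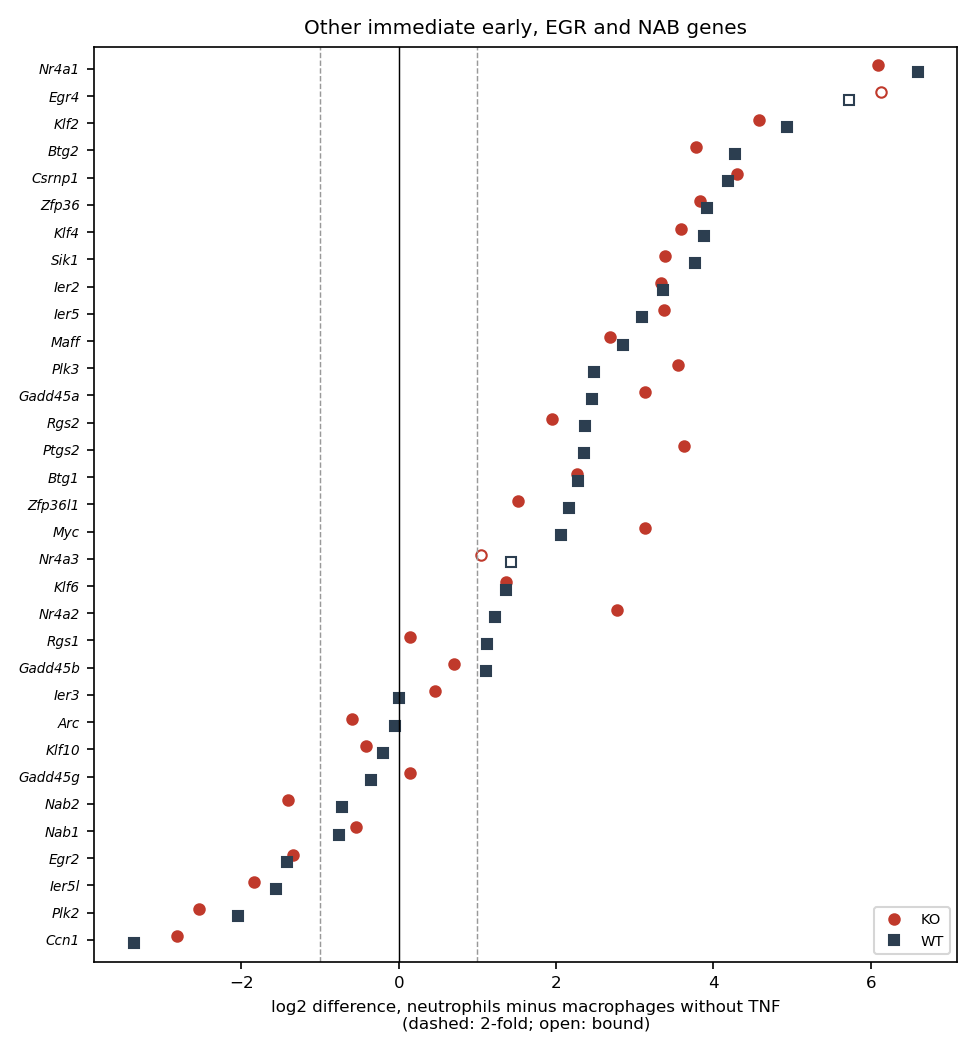
Log2 differences of the other immediate early, EGR and NAB genes for neutrophils against macrophages without TNF, KO and WT marked by colour, with dashed lines at 2-fold and open points for bounds. Nr4a1 and Klf2 were at the high end and Ccn1 and Plk2 at the low end in both genotypes.

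Of the other EGR and NAB genes, Egr4 was measured on the neutrophil arrays alone and was at least 6.13 higher on the log2 scale in KO and 5.72 in WT neutrophils than in macrophages. Egr2, a factor of the same family, was lower in neutrophils (-1.35 in KO and -1.41 in WT). The co-repressor gene Nab2 was lower in KO (-1.40) and at -0.72 in WT. With TNF, Egr2 was at 0.62 in KO and rose in WT (1.06). No gene of this list of 4 passed between KO and WT. Among all genes 9.67% passed there in macrophages with TNF, 5.64% without TNF and 8.39% in neutrophils. With spike-in scaling Egr2 was lower in KO macrophages with TNF (-1.32) and Nab2 in KO neutrophils (-1.02).

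The MAPK phosphatases and feedback genes, which switch off the kinases upstream of Fos and Egr1, numbered 16. In neutrophils 8 were higher and 3 lower in KO, and 6 higher and 4 lower in WT. Among all genes 25.3% were higher and 19.6% lower in KO, and 26.4% higher and 17.9% lower in WT. Dusp2 was higher by 4.84 in KO and 4.89 in WT on the log2 scale, and Dusp1 by 3.46 in KO and 3.51 in WT. Dusp3 (-4.60 in KO and -4.04 in WT) and Spred1 (-3.74 in KO and -3.10 in WT) were the lowest. Between genotypes Spry4 was lower in KO macrophages without TNF (-1.01), Spry2 higher (1.07) and Dusp5 lower (-1.01) in KO macrophages with TNF, and Dusp14 lower in KO neutrophils (-1.62). Of the MAPK cascade kinases, 3 of 21 were higher and 2 lower in KO neutrophils, and 4 higher and 3 lower in WT neutrophils, where 44.9% of all genes passed in KO and 44.4% in WT. Map2k6, a kinase of the p38 pathway, was the 1 of 21 that passed between KO and WT macrophages with TNF (1.37). In that comparison 9.67% of all genes passed, 6.98% higher and 2.69% lower. Spike-in scaling lowers every KO minus WT value that is not a bound by 0.41 in neutrophils, 0.78 in macrophages with TNF and 0.52 in those without, and the increases of Ier3, Spry2 and Map2k6 then stay under 2-fold. It also adds decreases: 5 of 21 kinases and 6 of 16 phosphatase and feedback genes were then lower in KO macrophages with TNF, and 0 and 4 without TNF. Over all genes that scaling gave 4997 of 23896 lower with TNF and 1760 of 24632 without. In KO neutrophils against macrophages, 2 of the 16 phosphatase and feedback genes were then higher and 7 lower. In WT 3 were higher and 6 lower. Of the 21 kinases, 2 were then higher and 14 lower in KO, and 2 higher and 15 lower in WT. Among all genes 1679 of 25056 were higher and 15204 lower in KO, and 1973 of 25548 higher and 15728 lower in WT.

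Of 13 other bZIP partners of AP-1, 3 were higher and 7 lower in KO neutrophils than in KO macrophages, and 3 higher and 5 lower in WT. For this comparison 25.3% of all genes were higher and 19.6% lower in KO, and 26.4% higher and 17.9% lower in WT. With TNF, Maf, a bZIP factor expressed in macrophages, fell (-2.70 in KO and -2.67 in WT). Batf2 (-1.58) and Maf (-1.15) were lower in KO than in WT neutrophils, as were the 8 macrophage markers counted above, whose part in this was not tested. Bach2 was higher in KO than in WT macrophages with TNF (1.26), which the spike-in scaling also brings under 2-fold. Of 12 CREB and ATF genes, 1 was higher (Atf4, 1.11 in KO and 1.33 in WT) in neutrophils of each genotype, and 3 in KO and 2 in WT were lower. Between genotypes 0 of 12 passed in macrophages (4 lower in KO with TNF and 1 without with spike-in scaling), and Atf5 (-1.07) and Creb3l2 (-1.01) were lower in KO neutrophils. Between genotypes 9.67% of all genes passed in macrophages with TNF, 5.64% without TNF and 8.39% in neutrophils. Over all genes the spike-in scaling gave 4997 of 23896 lower in KO macrophages with TNF and 1760 of 24632 without. Of the 6 serum response and ternary complex factors, through which MAPK signals reach Fos and Egr1, Elk4 was higher (2.26 in KO and 2.31 in WT) and Mrtfb lower (-2.00 in KO and -2.05 in WT) in neutrophils. None of the 6 passed between KO and WT or with TNF, except that 1 was lower in KO macrophages with TNF under spike-in scaling, Srf (-1.04). Srf, Hspd1 and Hsp90aa1 are named after their values were seen. With that scaling Atf4 and Elk4 were no longer past 2-fold in neutrophils.

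The genes whose pattern over the 6 arrays was most like that of a member were found among 12758 named genes measured on all arrays, by the smallest root mean square difference of mean-centred log2 values. For Fos these were Rnase6 (0.21), Zfp36 (0.24) and Mef2c (0.35). For Egr1 they were Rab30 (0.22), Gbp11 (0.29) and Scd1 (0.29). For Atf3, whose pattern is nearly flat, they were Bex3 (0.07), Zfp78 (0.09) and Impact (0.09). Zfp36 encodes an mRNA decay factor and had 29.2 in KO and 22.5 in WT neutrophils, 0.863 in KO and 0.744 in WT macrophages with TNF, and 2.05 in KO and 1.49 in WT macrophages without TNF. The closest other members were Jun for Fos (0.72, rank 75 of the 12758), Jund for Egr1 (0.86, rank 126) and Fosl2 for Atf3 (0.75, rank 8737). These patterns rest on 6 arrays that differ mainly in cell type.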

How the data were processed

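Total RNA was labelled with Cy3 and hybridised to 6 arrays, 1 per group. The deposited files hold linear spot intensity, quantified by the authors with Agilent Feature Extraction 10.7.3.1, per the file headers and the submitters' processing notes. The background had been subtracted from the processed intensity, per the file headers, dim spots carried a surrogate value, and no scaling between arrays was recorded. All arrays lay on 1 slide with 1 scan, so no batch could be set against the groups. Probe coordinates were on mm9.

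Control spots and spots marked as outliers were left out (101 to 121 gene spots per array), repeated spots were averaged, and log2 of the deposited intensity minus the 75th percentile of each array was used. For the 11199 genes with several probes, the probe brightest on average over the 6 arrays stood for the gene. Levels of different probes were not compared. A difference counted at 2-fold (log2 1), by the rule and bound given with the results, in 8 comparisons and under 7 alternatives. With 1 array per group there was no test, and precision is limited by the number of arrays. The median SD between spots of 1 probe within an array was 0.08 to 0.10 (log2, 399 probes).

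The members, the 9 gene lists (126 genes, 125 on the array), the 8 marker lists and the rule for named genes were chosen with earlier results of these data known. Every member was named, with the 2 largest passing increases and decreases of each list in a comparison and the 3 closest genes for Fos, Egr1 and Atf3. Of the genes this rule allows, 1 is not reported here. The rules were tested on simulated data. Python 3.11.15, pandas 2.3.3, R 4.3.3 and limma 3.58.1 were used.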

Additional observations from a re-analysis of the deposited data

How the results depend on the processing

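The alternatives were scaling to the median of the probes measured on all arrays, quantile normalization, scaling to 8 spike-in probes, normexp background correction with an offset of 50, no filter on dim probes, a requirement of measured signal on all arrays compared, and the median over a gene's probes. Of the values of single members under these, 473 kept their direction and their side of 2-fold, 25 changed sign with both values under 2-fold, 11 came to pass 2-fold, 6 no longer passed and 1 reversed. The counts of members past 2-fold changed mainly with the spike-in scaling: 2 (both lower) for KO against WT macrophages without TNF, 4 (all lower) with TNF, 0 in neutrophils, and 2 for TNF in KO macrophages. In the same order, 8.92%, 22.9%, 11.6% and 9.79% of all genes passed with that scaling. In neutrophils the count was 2 without the filter on dim probes, where Egr3 was at 1.28, and 0 with the median over probes. The reversed value was that of Fosl2 in KO neutrophils against KO macrophages, -1.10 with spike-in scaling. There Fosl2 in WT (-2.26) and Atf3 (-1.59 in KO and -1.61 in WT) also passed as lower.

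The share of higher genes among all that passed moved with the scaling. With the 75th percentile, and then with spike-ins, it was 72.5% and 19.9% for KO against WT macrophages without TNF. For KO against WT macrophages with TNF it was 72.2% and 8.55%, and for KO against WT neutrophils 43.6% and 13.1%. For TNF in KO it was 54.4% and 26.7%, for the difference between the TNF differences 70.7% and 28.8%, and for neutrophils against macrophages 56.3% and 9.94% in KO and 59.6% and 11.1% in WT. Quantile normalization gave 62.0% for KO against WT macrophages with TNF. The 8 spike-in differences had SDs of up to 0.42 in KO against WT, and the cause of their offset was not tested. No paired analysis was possible because each group has 1 array. Signal over background limits Egr3, which was measured on 1 array.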

Other observations

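Of 18 genes known as targets of AP-1 or EGR factors, 2 were higher and 10 lower in KO neutrophils than in KO macrophages without TNF, and 2 higher and 11 lower in WT. Among all genes 25.3% were higher and 19.6% lower in KO, and 26.4% higher and 17.9% lower in WT. Macrophage markers (11 of 14 in KO and 7 of 14 in WT) and mesothelial and fibroblast markers (8 of 8 in either) were lower with them, and their part was not tested. Lif (2.12 in KO and 2.35 in WT on the log2 scale) and Mmp9 (1.61 in KO and 1.78 in WT) were the higher ones, neither past 2-fold with spike-in scaling, and Mmp9 is also on the list of neutrophil markers. Spp1, the gene of osteopontin, was at -10.67 in KO and, as a bound, at -11.27 in WT.

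With TNF, 8 of the 18 were higher and 1 lower in KO macrophages, and 10 higher and 1 lower in WT macrophages, while Fos was lower in both. Among all genes 4.45% were higher and 3.73% lower in KO, and 4.41% higher and 4.59% lower in WT. The counts with spike-in scaling were 6 higher and 1 lower in KO, and 10 higher and 1 lower in WT. F3, the gene of tissue factor, was higher by 2.77 in KO and 3.13 in WT, and Icam1, an adhesion molecule, by 2.48 in KO and 2.70 in WT. Lif, a cytokine of the IL-6 family, had 0.186 in KO and 1.42 in WT macrophages with TNF, against 0.138 in KO and 0.152 in WT macrophages without TNF. Its difference between the TNF differences was -2.79, and that of Mmp9 was -1.70. In neutrophils 1 of 16 measured genes was higher in KO than in WT and 3 were lower, where 3.66% of all genes were higher and 4.73% lower.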
